A study of Mus musculus with 10 samples.

Results

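The 83 genes described here encode the proteins of the cytosolic ribosome in mouse, 51 of the large subunit and 32 of the small subunit, out of 22878 gene symbols in the files. They were chosen by symbol alone: Rpl or Rps with a number and an optional a, x or l ending, the stalk genes Rplp0, Rplp1 and Rplp2, and Rpsa. The set includes 6 paralog copies with an l or l1 ending (Rpl3l, Rpl7l1, Rpl10l, Rpl22l1, Rpl39l and Rps27l), and it leaves out genes under other symbols, such as Fau and Gnb2l1. Where a gene had several listed transcripts, as 10 of the 83 did, the 1 with the highest mean reads was used. The levels come from polyA RNA-seq of R1 mouse embryonic stem (ES) cells carrying 1 of 2 lentiviral short hairpins and selected with puromycin. The control hairpin, shLuc, targets luciferase, and shSmyd5 targets Smyd5, a methyltransferase of the SMYD family. Each arm was sampled as undifferentiated ES cells and as embryoid bodies (EBs), the aggregates in which ES cells differentiate, after 24 h, 6 days, 10 days and 14 days, so that the 10 libraries hold 1 library per condition. All cells were first passaged on gelatin with LIF and 1.5 µM CHIR9901, a GSK3 inhibitor, to remove feeder cells, and EBs were then kept in suspension without LIF. A difference between 2 libraries therefore has no replicate check, and intervals given for it cover counting error only.

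Smyd5 itself stood at 29.7, 10.7, 15.4, 24.95 and 13.1 RPKM (reads scaled to transcript length in kilobases and to library size) in shLuc and at 4.51, 0.891, 0.492, 9.14 and 6.88 RPKM in shSmyd5, in the order ES cells, 24 h, day 6, day 10 and day 14. It was lower in shSmyd5 at every stage, and the ratio of the arms was closest to 1 at day 10 and day 14. Every series of 5 values below follows this order of stages. All 8 ES cell markers listed, among them Pou5f1 and Nanog, were at 3 RPKM or more in both ES libraries. The 7 fibroblast markers listed summed to 4.49 and 3.56 RPKM there, with 1 of the 7, Thy1, at 3 RPKM or more (3.82 and 3.30 RPKM) and Col3a1, Postn and Dcn listed at 0 in both. Reads in genes ran from 3895537 (shLuc ES cells) to 43377815 (shLuc day 6), so the shLuc ES library has the widest counting intervals.

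Ribosomal proteins are made in near-equal numbers and assembled with ribosomal RNA in the nucleolus into a large subunit, which forms peptide bonds, and a small subunit, which decodes the mRNA. Their mRNAs are among the most abundant of a growing cell. Most begin with a C followed by a run of pyrimidines, the terminal oligopyrimidine (TOP) motif, through which mTOR signalling controls their translation. ES cells are known for a short cell cycle and a high demand for ribosomes. Some ribosomal proteins also have paralogs used in particular tissues, of which Rpl10l and Rpl39l are known from the testis and Rpl3l from striated muscle.

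The starts of 62 of the 83 genes had an entry in the RefSeq promoter table (build GRCm38.p6). A C stood at the listed start base of 20 of these 62 genes (32.3%), against 13.9% of 15421 genes of the files with an entry. A run of 8 or more pyrimidines around the start was present in 15 (24.2%), against 3.55% of all genes, and the letters CTTTC lay on the gene's strand within 10 bases of the start in 10 (16.1%), against 2.33%; the reverse strand gave 1.61% and 1.88%. The sequences below run from 30 bases before the listed start to 15 bases from it, with the pyrimidine run at the start in capitals, and show the TOP-like letters of 4 genes named further on. They are Rps6 (chr4:86857353-86857397 on the minus strand), Rpl15 (chr14:18270972-18271016 on the minus strand), Rpl28 (chr7:4792935-4792979 on the plus strand) and Rpl35 (chr2:39005117-39005161 on the minus strand).
Rps6: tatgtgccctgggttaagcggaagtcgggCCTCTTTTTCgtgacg
Rpl15: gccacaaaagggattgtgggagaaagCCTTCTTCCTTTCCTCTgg
Rpl28: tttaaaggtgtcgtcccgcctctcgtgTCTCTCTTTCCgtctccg
Rpl35: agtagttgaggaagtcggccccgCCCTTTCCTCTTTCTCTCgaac

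Ribosomal protein genes took 3.44% of the reads in shLuc ES cells (exact 95% binomial interval 3.42 to 3.45) and 4.55% in shSmyd5 ES cells (4.54 to 4.56). At 24 h the shares were 3.21% and 4.38%, and at day 6 they were 3.12% and 4.90%. At day 10 they were 2.11% and 1.89%, and at day 14 they were 2.01% and 1.80%. The share was thus higher in shSmyd5 in ES cells, at 24 h and at day 6 and lower at day 10 and day 14, and in both arms the day 10 and day 14 libraries lay below the other 3. A share is a sum in which the genes with the most reads weigh most. At day 6 the median log2 fold of shSmyd5 over shLuc was 0.24 over these genes and -0.35 over all genes. With the trend of all genes on GC content and length taken out, the medians were -0.27 and -0.40. The large subunit went from 2.07% to 1.19% in shLuc and from 2.70% to 1.06% in shSmyd5 between ES cells and day 14. The small subunit went from 1.37% to 0.818% and from 1.85% to 0.743%. The 76 genes of the mitochondrial ribosome, a separate set of proteins, went from 0.468% to 0.256% and from 0.540% to 0.242%. Their shares were between 1.12 and 1.16 times as large in shSmyd5 as in shLuc in the first 3 stages, against 1.32 to 1.57 times for the cytosolic genes. In such bulk cultures fewer cells of a type and less RNA per cell cannot be told apart.

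**Figure D1:**
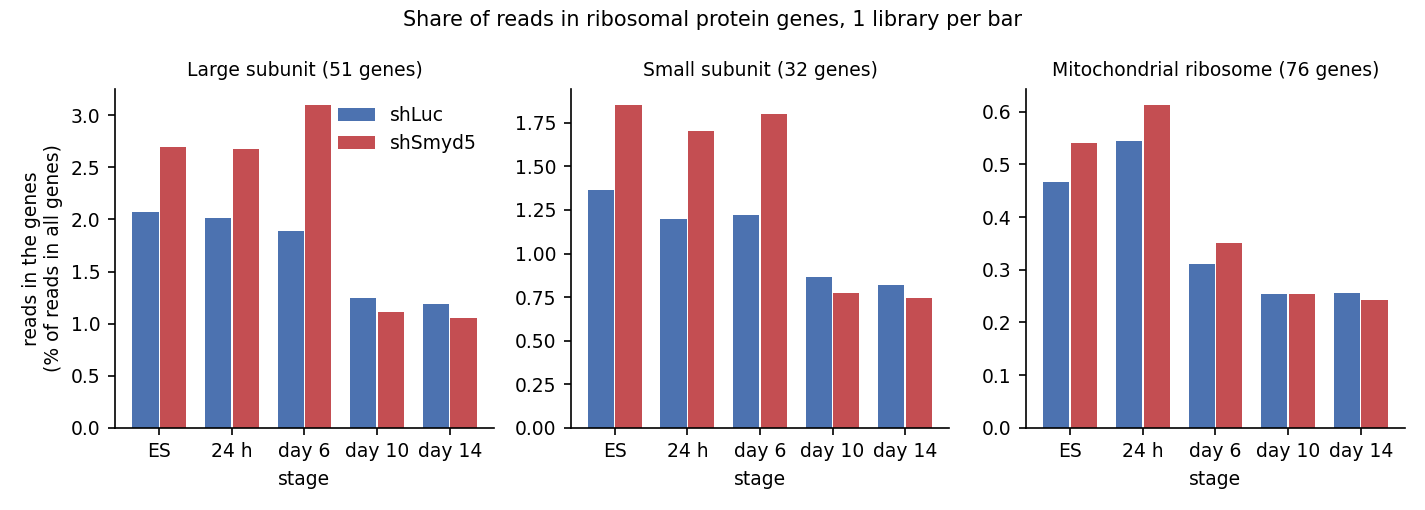
Bars give the share of reads in genes (%, vertical axis) that fell in the large subunit, small subunit and mitochondrial ribosomal protein genes, for shLuc and shSmyd5 at 5 stages, 1 library per bar. Both cytosolic subunits are higher in shSmyd5 in ES cells, at 24 h and at day 6, reaching 3.10% and 1.80% at day 6, and slightly lower at day 10 and day 14.

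The 5 genes with the highest mean level were Rps26 (1641 RPKM over the 10 libraries), Rpl4 (1464), Rps20 (1423), Rpl41 (1168) and Rpl32 (1043). Rps26, a small subunit protein at the mRNA exit channel (chr10:128061586-128063562, mm9), stood at 1148, 1586, 1964, 641 and 1198 RPKM in shLuc and 2049.8, 2180.3, 4069, 637 and 933 RPKM in shSmyd5. Rpl4 (chr9:64021194-64026369), which lines the peptide exit tunnel, stood at 1266, 1516, 1545, 907 and 956 RPKM in shLuc and 1843, 2035, 2718, 971 and 886 RPKM in shSmyd5. Both were at their highest in shSmyd5 day 6 EBs and were closest between arms at day 10. Rps20 (chr4:3758481-3762812) stood at 886, 1719, 1223, 522 and 777 RPKM in shLuc and 1674, 3609, 2639, 558 and 626 RPKM in shSmyd5, with its highest level in shSmyd5 24 h EBs. The smallest ribosomal protein gene product, encoded by Rpl41, stood at 946, 1288, 1332, 384 and 623 RPKM in shLuc and 1769, 2409.8, 2105, 347 and 479 RPKM in shSmyd5. For each of these 4 genes the 4 libraries of day 10 and day 14 lay below the 3 shSmyd5 libraries of the earlier stages.

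The 5 lowest by mean among members that reached 3 RPKM were Rpl39l (15.7 RPKM), Rps15a (27.1), Rpl7l1 (38.6), Rpl10l (39.1) and Rpl29 (49.5), 3 of them paralog copies. Rps15a (chr7:125247892-125259700) is listed with a length of 5134 bases, the longest of all members, which lowers its RPKM, and it stood at 17.1, 35.9, 31.0, 17.6 and 26.7 RPKM in shLuc and 33.5, 34.8, 30.1, 19.5 and 24.9 RPKM in shSmyd5. Rpl29 (chr9:106331785-106333899), a large subunit protein that also binds heparin, stood at 131, 12.8, 18.1, 23.4 and 21.6 RPKM in shLuc and 159.8, 37.1, 49.9, 21.1 and 19.8 RPKM in shSmyd5. Both ES libraries were far above the other 8.

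Across the 10 libraries, 68 and 74 genes were at 100 RPKM or more in shLuc and shSmyd5 ES cells, and 62 and 60 at day 14. The median level was 227, 212, 251, 156 and 195 RPKM in shLuc and 309, 312, 306, 158 and 166 RPKM in shSmyd5. Of the 83 genes, 27 were at their highest in shSmyd5 ES cells, 26 in shSmyd5 day 6 EBs, 14 in shSmyd5 24 h EBs and 12 in shLuc ES cells. The library in which most genes were at their lowest was shLuc 24 h (26 genes), followed by shLuc day 10 (21 genes). Such counts are not given over all genes. Of all genes compared, 50.8% were at least 1.5-fold lower in shLuc 24 h EBs than in shLuc ES cells. On the log2(RPKM + 0.1) scale, 59 genes had a Pearson correlation over 0.5 with the mean of the other members over the 10 libraries (median 0.69), a description over libraries that share stage and base composition. The genes did not form 1 uniform block: 4 had a correlation under 0. Such correlations are not given for other genes.

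**Figure D2:**
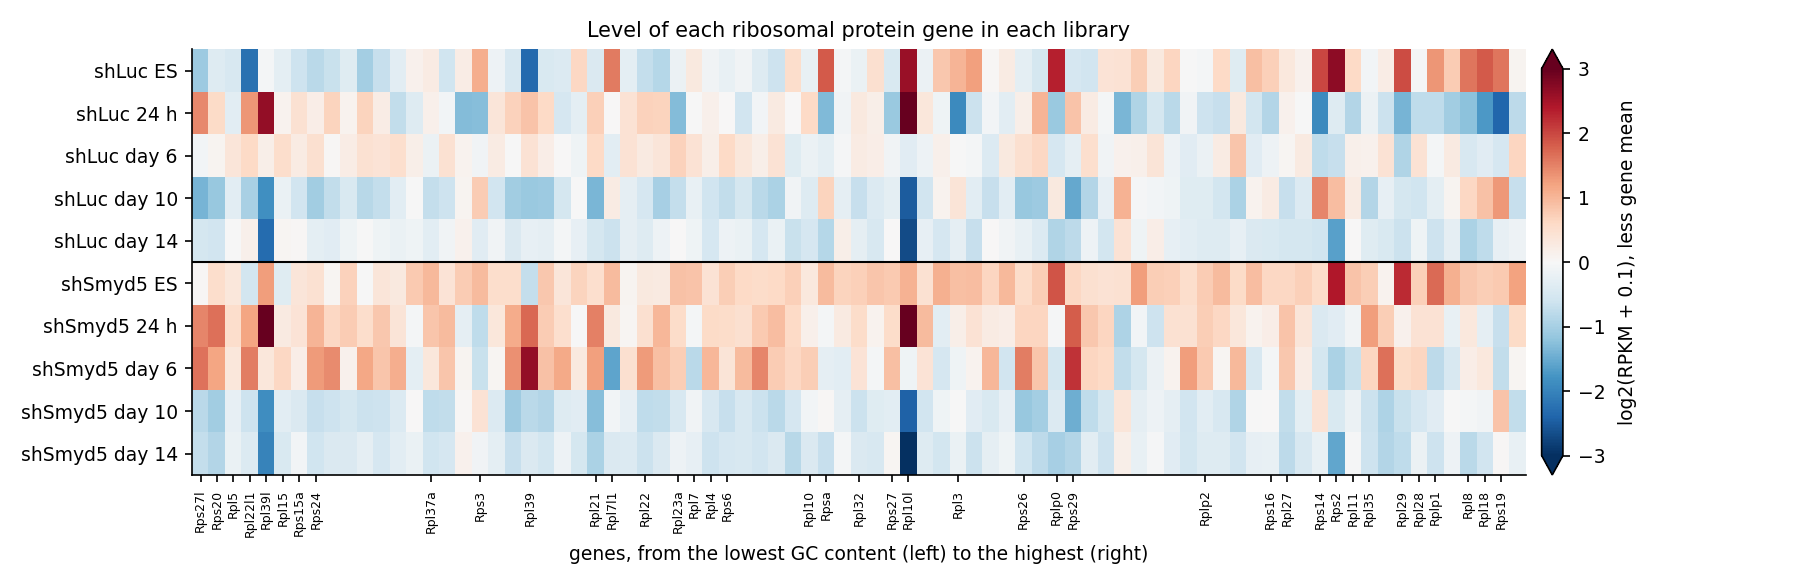
Each column is 1 of 81 ribosomal protein genes, ordered from the lowest GC content of the transcript on the left to the highest on the right, and each row is 1 library; the symbols under the columns are of genes named in the text. Colour gives log2(RPKM + 0.1) less the mean of the gene over the 10 libraries, from blue (lower) to red (higher); the 2 lower rows of each arm, day 10 and day 14, are mostly blue, and in the shLuc ES and shLuc 24 h rows the colour shifts with GC content from left to right.

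Day 10 and day 14 EBs were compared with ES cells and 24 h EBs in a fit over all 10 libraries, with stage and arm as terms. The contrast averages the 2 arms, which are different conditions and not repeats. Ribosomal protein genes were lower in the late EBs: 65 of the 82 tested fell, 39 of 50 of the large subunit and 26 of 32 of the small subunit, and 0 rose (edgeR's quasi-likelihood test, Benjamini-Hochberg adjusted over 12277 genes, threshold 0.05). Over all genes 26% were lower and 30% were higher in the same test. The median log2 fold was -1.05 over the ribosomal protein genes and 0.05 over all genes tested. Leaving out the day 10 libraries left 36 called, and correcting each library for GC content and transcript length left 36 lower and 2 higher of 81 (30.2% lower and 31.3% higher over all genes), with Rps19 among the higher. Limma on log2 RPKM called 42, of which 41 were lower. Shares of all genes are not given for the limma fit or the fit without day 10, so their counts have no background beside them. Marker genes of other cells moved with the same contrast. The sum of the 8 ES cell markers went from 3423 RPKM in shLuc and 2614 RPKM in shSmyd5 ES cells to 132 and 60.4 RPKM at day 14. The sum of 8 endoderm markers went from 18.6 and 27.9 RPKM to 4050 and 3890 RPKM, and that of 7 fibroblast markers from 4.49 and 3.56 RPKM to 3417 and 1911 RPKM. All 8 ES cell markers fell and all 8 endoderm markers rose by the same test, and 6 of the 7 fibroblast markers rose and 1 fell. Their part in the result was not tested.

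Among the genes named for their role, those of the stalk proteins, which recruit the elongation factors to the large subunit, were all called lower in the late test averaged over the arms. Rplp0 (chr5:116009476-116013736), the base of the stalk, stood at 1219, 113, 173, 298 and 129.8 RPKM in shLuc and 904, 239, 169.6, 182 and 122 RPKM in shSmyd5. It was far higher in both ES libraries than anywhere else, with a late log2 fold of -1.67 ± 0.28 (SE), adjusted p = 0.000506, and it lost the call when the ES libraries were left out. Rplp1 (chr9:61761091-61762345) stood at 1502, 353, 576, 487 and 391 RPKM in shLuc and 1953, 812, 349, 474 and 390.1 RPKM in shSmyd5, with a late log2 fold of -1.54 ± 0.26 (SE), adjusted p = 0.000575. Rplp2 (chr7:148633269-148637484) stood at 565, 381, 517, 453 and 451 RPKM in shLuc and 994, 970.1, 1013, 473 and 451 RPKM in shSmyd5, with -0.91 ± 0.27 (SE), adjusted p = 0.0152. In shLuc the day 10 and day 14 values of Rplp2 lay between its ES and 24 h values. In shSmyd5 they lay below all earlier values of Rplp2. It was the 1 member that was higher in shSmyd5 at every stage, by a margin at day 14 that is within the counting interval of the pair (-0.04 to 0.05 on the log2 scale).

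Of 9 genes for proteins that bind ribosomal RNA or take part in decoding, 3 fell late (26% of all genes were lower). Rps6 (chr4:86500564-86503316), the small subunit protein phosphorylated by S6 kinase, stood at 221, 257, 389, 154 and 230.0 RPKM in shLuc and 431, 378, 334, 158 and 182 RPKM in shSmyd5, with a late log2 fold of -1.18 ± 0.26 (SE), adjusted p = 0.00274. The laminin receptor gene Rpsa (chr9:120036884-120041487), whose product also sits in the small subunit, stood at 283, 31.1, 64.1, 124 and 43.6 RPKM in shLuc and 153, 75.5, 65.3, 80.6 and 48.6 RPKM in shSmyd5, with -0.999 ± 0.30 (SE), adjusted p = 0.0153. Rpl10 (chrX:71516151-71518474), which joins the large subunit late in its assembly, had -0.98 ± 0.29 (SE), adjusted p = 0.0136. Rps3, Rps14, Rps19, Rpl3, Rpl5 and Rpl11 did not pass the test (log2 folds of -0.19, -0.26, 0.19, -0.52, -0.59 and -0.49; edgeR adjusted p from 0.059 to 0.635). Rpl5 and Rpl11 form, with a small ribosomal RNA, the particle that binds Mdm2 when assembly fails. Rps19 (chr7:25669390-25674825), which is mutated in Diamond-Blackfan anaemia, stood at 179, 11.3, 41.997, 146 and 50.1 RPKM in shLuc and 102, 36.5, 35.3, 107 and 60.6 RPKM in shSmyd5. Its ES and day 10 libraries were the highest of each arm, and 9 pseudogenes carry its name.

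The smallest p-values of the late contrast belonged to Rpl10l, Rpl39l, Rps2, Rpl41, Rpl21, Rplp0, Rpl37a, Rpl27, Rps20 and Rplp1. Rps2 (chr17:24855061-24858874), which lies at the mRNA entry channel, stood at 531, 63.3, 50.8, 156 and 26.5 RPKM in shLuc and 435, 64.8, 42.7, 60.2 and 28.0 RPKM in shSmyd5, a late log2 fold of -2.10 ± 0.27 (SE), adjusted p = 8.83e-05. Its ES level was more than 6 times that of 24 h EBs in both arms, so the fall began before the late stages. Rpl41 had -2.10 ± 0.30 (SE), adjusted p = 0.000176, and Rpl21 had -1.96 ± 0.28 (SE), adjusted p = 0.000188. Rpl21 is the member with the most named pseudogenes (14), and reads of such copies could not be told from its own. Rpl37a, Rpl27 and Rps20 had log2 folds of -1.51, -1.52 and -1.84 with edgeR adjusted p of 0.000534, 0.000538 and 0.000567.

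The copies Rpl10l and Rpl39l had the largest late folds of all members. Rpl10l (chr12:67384368-67385388), an autosomal copy of the X-linked Rpl10, stood at 61.5, 182, 7.98, 1.73 and 1.51 RPKM in shLuc and 20.9, 103, 9.33, 1.81 and 1.15 RPKM in shSmyd5. It was over 20 RPKM in the 4 ES and 24 h libraries, under 10 at day 6 and under 2 in the 4 late libraries, a late log2 fold of -5.94 ± 0.40 (SE), adjusted p = 1.83e-06. Rpl39l (chr16:10170319-10175004), a copy of the X-linked Rpl39, stood at 5.79, 38.4, 6.87, 1.63 and 1.15 RPKM in shLuc and 14.6, 78.1, 7.68, 1.59 and 1.43 RPKM in shSmyd5. Both arms peaked at 24 h, and the late log2 fold was -4.36 ± 0.34 (SE), adjusted p = 4.32e-06. As a share of the summed RPKM of copy and parent, Rpl10l made up 27.5%, 38.8%, 4.49%, 1.18% and 1.12% in shLuc and 8.04%, 32.5%, 2.84%, 0.993% and 0.805% in shSmyd5. Rpl39l made up 7.28%, 5.34%, 1.33%, 0.932% and 0.365% in shLuc and 6.06%, 5.97%, 0.328%, 0.743% and 0.516% in shSmyd5. In shSmyd5 ES cells the Rpl10l share was thus under that of shLuc ES cells with intervals that do not overlap, while the Rpl39l intervals in ES cells overlap.

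How far copy and parent can be told apart by reads depends on their sequences, of which the coding starts (first 150 bases, NCBIM37 genome with GENCODE M1 annotation, the assembly also called mm9) are shown with the bases that differ between the 2 genes of a pair in capitals. Over the whole coding sequence Rpl10 and Rpl10l (645 bases) differ at 98 positions, 89 of them at the last base of a codon, and their longest identical stretch is 23 bases. Rpl39 and Rpl39l (156 bases) differ at 23 positions, 16 of them at the last base of a codon, with a longest identical stretch of 38 bases.
Rpl10: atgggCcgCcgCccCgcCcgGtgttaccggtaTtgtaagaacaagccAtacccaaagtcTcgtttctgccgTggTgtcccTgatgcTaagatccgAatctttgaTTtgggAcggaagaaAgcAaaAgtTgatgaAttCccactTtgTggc
Rpl10l: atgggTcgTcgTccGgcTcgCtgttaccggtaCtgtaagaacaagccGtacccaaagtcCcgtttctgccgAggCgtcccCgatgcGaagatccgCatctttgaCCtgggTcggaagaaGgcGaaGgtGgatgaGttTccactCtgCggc
Rpl39: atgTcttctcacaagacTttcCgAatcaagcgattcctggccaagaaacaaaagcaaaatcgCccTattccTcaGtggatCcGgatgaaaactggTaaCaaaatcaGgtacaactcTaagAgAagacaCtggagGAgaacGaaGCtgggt
Rpl39l: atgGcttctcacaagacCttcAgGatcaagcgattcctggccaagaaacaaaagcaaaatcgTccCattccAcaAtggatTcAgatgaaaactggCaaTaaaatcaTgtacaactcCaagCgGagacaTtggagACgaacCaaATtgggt
The identity was 84.8% for the Rpl10 pair and 85.3% for the Rpl39 pair.

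The remaining copies had smaller late folds. Rpl22l1 (chr3:28704358-28706274), a copy of Rpl22 that binds RNA, stood at 43.9, 528, 317, 107 and 231 RPKM in shLuc and 143, 476, 605, 136 and 157 RPKM in shSmyd5, and its late fall did not pass the test (-0.82 ± 0.36 (SE), adjusted p = 0.0759 by edgeR). Its parent Rpl22 stood at 118, 310.0, 233, 136 and 148 RPKM in shLuc and 238, 268, 471, 114 and 124 RPKM in shSmyd5, with -1.15 ± 0.33 (SE), adjusted p = 0.0118. The copy made up 27.2% and 37.5% of the pair in shLuc and shSmyd5 ES cells and between 44.1% and 64.0% in the 8 EB libraries. Rps27l (chr9:66793893-66797323), a copy of Rps27 known as a p53 target, stood at 132, 760.2, 265, 106 and 194 RPKM in shLuc and 284, 772, 862, 158 and 171 RPKM in shSmyd5, with a late log2 fold of -1.71 ± 0.36 (SE), adjusted p = 0.00213. On the transcripts used it made up the larger part of its pair in every library, from 66.2% to 96.1%, while Rps27 stood at 48.6, 30.7, 62.6, 54.4 and 67.0 RPKM in shLuc and 115, 98.8, 124, 53.8 and 70.0 RPKM in shSmyd5. The Rps27 level leaves out 1 of its 2 listed transcripts. The transcript used is listed as non-coding. It is 575 bases long, against 345 bases for the coding transcript matched to it, so the Rps27 share may be understated. Rpl7l1 (chr17:46910856-46919605) stood at 96.9, 33.1, 26.1, 39.0 and 20.8 RPKM in shLuc and 63.7, 40.2, 10.9, 30.9 and 24.3 RPKM in shSmyd5 and fell late (-1.31 ± 0.24 (SE), adjusted p = 0.000874), and it made up 4.37% to 15.9% of its pair with Rpl7. Rpl3l, the muscle copy of Rpl3, was under 2 RPKM in all 10 libraries and is the 1 member that was neither tested nor given a fold between arms.

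**Figure D3:**
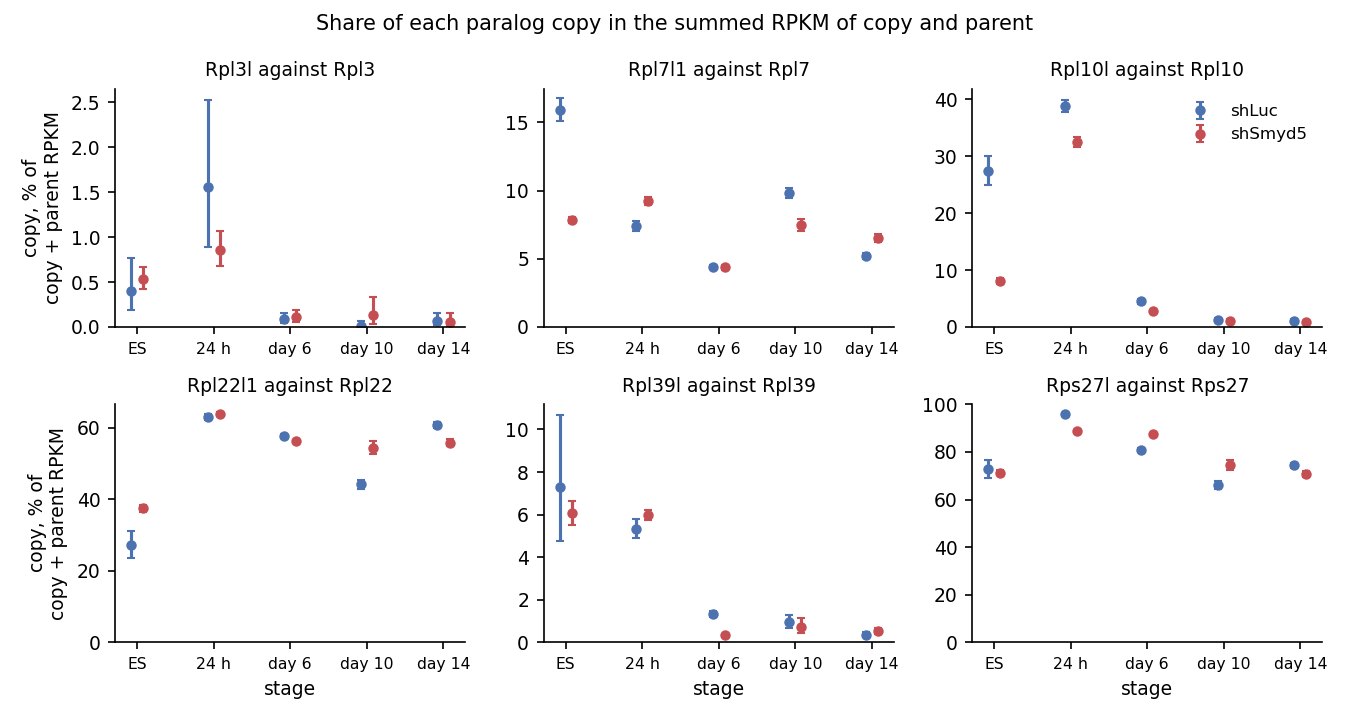
Points give the share of a paralog copy in the summed RPKM of copy and parent (%, vertical axis, a different range in each panel) at 5 stages in shLuc and shSmyd5, with exact 95% binomial intervals of the reads (counting error only). Rpl10l and Rpl39l lie under 5% from day 6 on, while Rps27l lies above 60% in every library and Rpl22l1 is at 27.2% in shLuc ES cells and 60.8% at day 14.

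In shSmyd5 against shLuc, more ribosomal protein genes were higher than lower in ES cells, at 24 h and at day 6 as deposited, and the counts in ES cells and at day 6 depended on whether the trend on GC content and transcript length was taken out. In ES cells 44 of the 82 genes with 3 RPKM or more in 1 or both libraries were at least 1.5-fold higher and 7 at least 1.5-fold lower, against 17.4% higher and 25.4% lower of all genes. At 24 h 44 were higher and 1 lower of 82, against 27.8% and 12.2% of all genes, and at day 6 30 were higher and 10 lower of 82, against 15.2% and 38.1%. With the trend of all genes on GC content and length taken out of each fold, 8 members were higher and 7 lower of 81 in ES cells (median log2 fold 0.12; 7.35% and 12.5% of all genes), 29 higher and 4 lower at 24 h (median 0.40; 20.1% and 8.91%), and 9 higher and 22 lower at day 6 (median -0.27, against -0.40 over all genes; 12.5% and 39.9%). At day 10 0 were higher and 8 lower of 80, against 10% and 16.5%, and at day 14 0 of 80 were past 1.5-fold in either direction, against 11.1% higher and 11.1% lower. Scaled by TMM, which sets most genes equal between libraries, the day 6 counts were 41 higher and 2 lower, and those of day 10 were 1 higher and 6 lower. The all-gene median log2 fold under TMM was -0.01 at day 6 and 0.04 at day 10, and shares of all genes under TMM are not given. The median log2 fold of the large subunit was 0.60, 0.71, 0.40, -0.02 and -0.13, and that of the small subunit 0.68, 0.62, 0.17, -0.01 and -0.13. The median over all genes was -0.07, 0.17, -0.35, -0.05 and 0.01. The day 6 count therefore stands beside a library pair in which most other genes were lower in shSmyd5. Cell type markers differed between the arms as well: the ES cell markers summed to 982 RPKM in shLuc and 496 RPKM in shSmyd5 at day 6, and the endoderm markers to 94.3 and 517 RPKM. Their part in the folds was not tested.

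**Figure D4:**
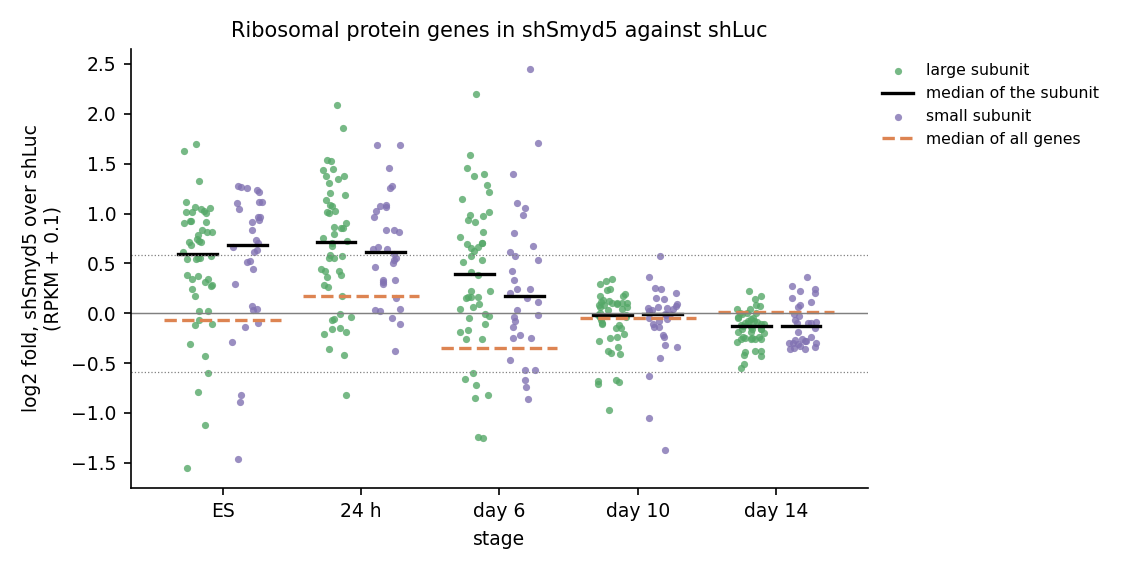
Points are ribosomal protein genes, and the vertical axis is the log2 fold of shSmyd5 over shLuc on RPKM + 0.1, for 5 stages and both subunits, 1 library per arm and stage. Black lines mark the median of a subunit, orange dashed lines the median of all genes and dotted lines a 1.5-fold change; the points spread widely and mostly sit above the orange line up to day 6, then gather around 0 at day 10 and day 14.

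In ES cells the largest folds upward were those of Rpl22l1 (log2 fold 1.70, 95% counting interval 1.43 to 1.98), Rpl39 (1.62, 1.40 to 1.86) and Rpl39l (1.32, 0.77 to 1.97, on 26 reads in shLuc). Rpl39 (chrX:34622515-34625397), a small protein of the exit tunnel wall, stood at 73.7, 681, 508, 173 and 315 RPKM in shLuc and 227, 1230.4, 2330.1, 212 and 275 RPKM in shSmyd5. It was higher in shSmyd5 by the largest margins in ES cells and at day 6, and lower at day 14. The lowest were Rpl10l (-1.55), Rps14 (-1.46) and Rpl18 (-1.12). Rps14, which lies at the platform of the small subunit, stood at 599, 39.6, 87.3, 413 and 98.3 RPKM in shLuc and 217, 109, 104, 199 and 126 RPKM in shSmyd5. Rpl18 (chr7:52970827-52976205) stood at 429, 36.3, 94.0, 219 and 70.5 RPKM in shLuc and 197, 98.9, 148, 112 and 79.5 RPKM in shSmyd5. Both were lower in shSmyd5 in ES cells and at day 10 and higher at the other 3 stages. After the trend of all genes on GC content and length was taken out, Rpl22l1, Rpl39 and Rpl39l were at 0.31, 0.52 and 0.31 and Rpl10l, Rps14 and Rpl18 at -1.78, -1.66 and -1.04, so the first 3 lost most of their fold and the last 3 kept theirs.

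At 24 h the largest folds upward were those of Rpl3 (2.09), Rpl23a (1.86) and Rps19 (1.69). Rpl3 (chr15:79908211-79913836), which reaches toward the peptidyl transferase centre, stood at 289.7, 38.3, 142, 187 and 120.02 RPKM in shLuc and 269, 163, 132, 144 and 126 RPKM in shSmyd5. Its shLuc 24 h value is the lowest of its 10. Rpl23a (chr11:77994434-77997086), at the mouth of the exit tunnel, stood at 194, 88.7, 353, 133 and 221 RPKM in shLuc and 408, 322, 368, 157 and 197 RPKM in shSmyd5, also with its lowest value in shLuc 24 h EBs. With the GC and length trend taken out the 3 folds were 1.87, 1.65 and 0.90. The lowest were Rpl10l (-0.82), Rpl10 (-0.42) and Rps12 (-0.38), of which Rpl10l was the 1 gene past 1.5-fold.

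At day 6 Rps29 (chr12:70258709-70260173), a zinc-binding small subunit protein, had the largest fold of the stage (2.45, 2.41 to 2.48), followed by Rpl39 (2.20) and Rps27l (1.70). Rps29 stood at 245, 623, 287, 120.04 and 201 RPKM in shLuc and 531, 1219, 1565, 125 and 188 RPKM in shSmyd5. The shSmyd5 day 6 value is its highest, and the pair of day 10 values differs little. The GC- and length-freed folds of the 3 were 1.49, 1.19 and 0.83. The lowest were Rpl7l1 (-1.25) and Rpl7 (-1.24). Rpl7 stood at 512, 413, 563, 357 and 378 RPKM in shLuc and 750.0, 396, 238, 384 and 349 RPKM in shSmyd5, so that copy and parent were low together in the shSmyd5 day 6 library.

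At day 10 Rps2 (-1.37), Rps14 (-1.05) and Rpl18 (-0.97) were the lowest, and Rps27l (0.57), Rps24 (0.36) and Rpl22l1 (0.35) the highest. The first 3 are GC-rich (56.5%, 55.8% and 58.3% GC) and kept -1.28, -1.04 and -0.84 with the GC and length trend taken out. At day 14 the range was narrow, from -0.55 (Rpl22l1), -0.51 (Rpl15) and -0.43 (Rpl21) to 0.24 (Rps16), 0.27 (Rps19) and 0.36 (Rps14). Of the 80 genes with a fold at these stages, 22 (27.5%) were higher in shSmyd5 in ES cells and at 24 h and lower at both day 10 and day 14, and 0 showed the opposite pattern. Over all genes with a fold at these 4 stages the first pattern held for 545 of 7261 (7.51%), and the opposite pattern was not counted. Both patterns were counted on folds that keep the GC and length trend.

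The effect of shSmyd5 common to the 5 stages was tested in the fit with stage as a block. The stages take the place of repeats there, so an arm difference that changes with stage adds to the spread of this test. For 0 of the 82 ribosomal protein genes did it pass the adjusted threshold by edgeR, and also for 0 of all 12277 genes (percent called 0); 12 members, all higher in shSmyd5, had an unadjusted p under 0.05 (14.6%, against 5.68% higher and 5.93% lower over all genes). DESeq2 called 336 genes (1.44% higher and 1.3% lower), 0 of them members, with 17 members, all higher, at an unadjusted p under 0.05 (5.78% higher and 7.97% lower over all genes). The median log2 fold was 0.34, and 73 of 82 were above 0. These values and counts keep the GC and length trend. The all-gene median and share above 0 are not given, so neither can be set against a background. The 10 smallest p-values belonged to Rps27, Rplp2, Rpl39, Rpl26, Rpl9, Rpl35, Rps24, Rps29, Rpl23a and Rpl28, led by Rps27 with 0.86 ± 0.27 (SE), adjusted p = 0.278 by edgeR and higher in 4 of 5 stages. Rps27 codes for a zinc-finger protein of the small subunit (chr3:90016593-90017573), but its level here is that of a transcript listed as non-coding. Rpl35 (chr2:38857100-38861144), at the tunnel exit, stood at 260.4, 243, 299.7, 149 and 214 RPKM in shLuc and 457, 659.9, 434, 176 and 179 RPKM in shSmyd5. Rpl28 (chr7:4744476-4746164) stood at 287, 174, 398, 195 and 268 RPKM in shLuc and 481, 396, 464, 209 and 259.6 RPKM in shSmyd5. Both, with the TOP-like starts shown above, were higher in shSmyd5 in ES cells, at 24 h, at day 6 and at day 10, and lower at day 14. In a fit with separate effects, chosen after the data were seen, the effect over ES cells and 24 h was called for 0 members, with 27 higher and 1 lower (Rpl10l) at an unadjusted p under 0.05 (2.78% and 3.22% over all genes) and a median of 0.53. The effect over day 10 and day 14 had 0 members at an unadjusted p under 0.05 (3.08% higher and 3.71% lower over all genes) and a median of -0.05. The difference between them was called for 0 genes, and 11 members higher and 1 lower had an unadjusted p under 0.05 (2.36% and 2.47% over all genes). This fit with separate effects keeps the GC and length trend and was not run with that trend taken out.

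GC content moved with the folds, in the ribosomal protein genes as in all genes. Their transcripts had a median GC content of 50.7% (40.7% to 60.9%; 49.7% over all genes) and a median length of 710 bases (2208 over all genes). The rank correlation of the shSmyd5 fold with GC content was -0.46, 0.38, -0.19, -0.43 and 0.45 over the members and -0.68, 0.58, -0.02, -0.39 and 0.32 over all genes, a description over genes of 1 library pair. The correlation with length was -0.42, -0.19, -0.23, -0.31 and 0.15 over the members. The sign of the GC relation thus changed between stages, from higher folds of AT-rich members in ES cells to higher folds of GC-rich members at 24 h. Among the members of lowest GC content 21 of 27 were at least 1.5-fold higher in ES cells and 12 were at 24 h, while among those of highest GC content 6 of 27 were in ES cells and 20 at 24 h. Of the 3 counts of higher members given above with this trend taken out, that of ES cells fell by the most genes, and at 24 h the median of the members (0.40) was above the all-gene median of 0.16.

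The first 120 coding bases of an AT-rich and a GC-rich member (NCBIM37, G and C in capitals) show how far the members differ in base composition. Rpl22l1 had a coding GC content of 39.6% and Rpl8, a core protein of the peptidyl transferase region (chr15:76734501-76736748), one of 58.7%.
Rpl22l1: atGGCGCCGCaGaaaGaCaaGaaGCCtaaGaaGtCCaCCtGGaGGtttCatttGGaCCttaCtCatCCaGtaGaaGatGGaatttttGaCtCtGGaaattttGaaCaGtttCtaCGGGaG
Rpl8: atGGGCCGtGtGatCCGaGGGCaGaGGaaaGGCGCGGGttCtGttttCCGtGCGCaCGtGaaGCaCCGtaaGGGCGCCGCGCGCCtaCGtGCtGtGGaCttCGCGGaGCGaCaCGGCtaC
Rpl8 stood at 1642, 231, 384, 829.7 and 278 RPKM in shLuc and 949, 668, 621, 515.9 and 307 RPKM in shSmyd5. It was the highest of all members in shLuc ES cells and was at 231 RPKM at 24 h, where Rpl22l1 went the other way, from 43.9 to 528 RPKM. In shSmyd5 the same step was smaller in both genes.

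**Figure D5:**
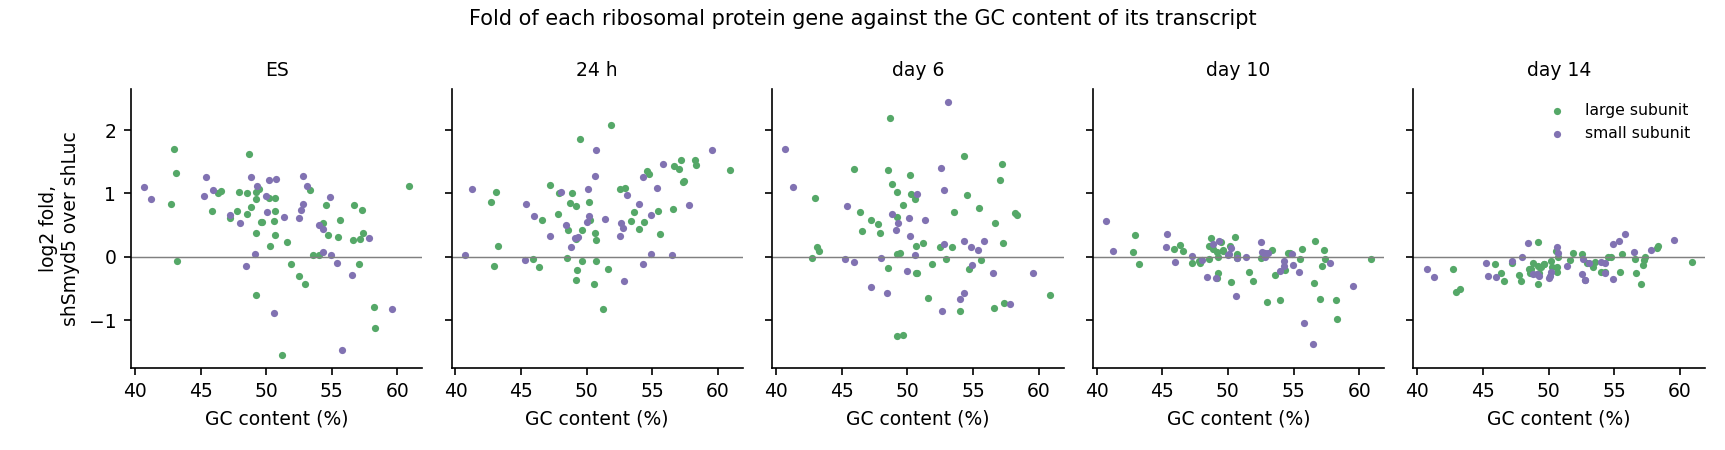
Each point is 1 ribosomal protein gene, with the GC content of its transcript (%) on the horizontal axis and the log2 fold of shSmyd5 over shLuc (RPKM + 0.1) on the vertical axis, in 1 panel per stage. The slope is downward in ES cells and at day 10 (rank correlation -0.46 and -0.43), upward at 24 h and day 14 (0.38 and 0.45) and weak at day 6 (-0.19).

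Within each arm the EB stages were set against ES cells; the 4 folds of an arm share the ES library. In shLuc 23 members were at least 1.5-fold higher and 30 lower at 24 h (25.9% and 50.8% of all genes), 24 and 21 at day 6 (34.7% and 39.2%), 3 and 33 at day 10 (38.9% and 26.3%), and 5 and 30 at day 14 (41.1% and 34.4%), of 82 genes each. In shSmyd5 they were 12 and 25 at 24 h (18.7% and 38%), 19 and 32 at day 6 (26.6% and 44.5%), 0 and 73 at day 10 (38.6% and 26.4%), and 0 and 72 at day 14 (39.5% and 29.4%). With TMM scaling the counts were 35 and 22 (shLuc 24 h), 2 and 52 (shLuc day 10), 22 and 17 (shSmyd5 24 h) and 28 and 22 (shSmyd5 day 6), so the balance turned with the scaling at 24 h in both arms and at day 6 in shSmyd5. Shares of all genes under TMM are not given, so whether all genes turned alike cannot be read from these counts. The late libraries of shSmyd5 were below their ES library for nearly all members, with a median log2 fold of -1.07 at day 10 and -1.09 at day 14. With the GC and length trend taken out, 3 members were higher and 33 lower of 81 at day 10 in shSmyd5 (35.2% and 25.8% of all genes) and 1 higher and 39 lower at day 14 (37% and 29.7%). In shLuc 3 were higher and 15 lower at day 10 (34.2% and 24.4%), and 2 higher and 28 lower at day 14 (36.1% and 30.9%).

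Other lists of ribosome production were read from the same late edgeR test, in which 26% of all genes were lower and 30% higher. Of 49 biogenesis factors, which process and fold ribosomal RNA, 47 fell and 0 rose. Of 12 genes of RNA polymerase I, which transcribes it, 11 fell. Among 29 translation initiation factors 18 fell, and among 11 elongation factors and other TOP mRNAs 4 fell and 1 rose. Rrp12, an export factor of the small subunit precursor, stood at 30.4, 6.10, 5.34, 6.15 and 1.48 RPKM in shLuc and 16.9, 7.35, 1.69, 3.20 and 1.43 RPKM in shSmyd5. Its highest value in each arm was in ES cells and its lowest at day 14. In shSmyd5 against shLuc at day 6, 1 biogenesis factor was at least 1.5-fold higher and 25 lower of 49 (median log2 fold -0.59; 15.2% and 38.1% of all genes), beside 30 higher and 10 lower ribosomal protein genes. With the GC and length trend taken out, 0 factors were higher and 32 lower (median -0.77), beside 9 higher and 22 lower ribosomal protein genes, and the difference between the lists was not tested. In ES cells 10 factors were higher and 6 lower (17.4% and 25.4% of all genes), and at 24 h 15 were higher and 0 lower (27.8% and 12.2%). Fau, a ubiquitin-like fusion of a small subunit protein that lies outside the symbol rule, stood at 312, 83.6, 193, 279 and 223 RPKM in shLuc and 332, 251, 209, 281 and 274 RPKM in shSmyd5. Its lowest level was in shLuc 24 h EBs, as for 26 of the 83 members, a count not given over all genes.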

How the data were processed

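PolyA RNA was made into double-stranded cDNA and sequenced single-end, so that reads carry no strand. The authors mapped reads to mm9 (Bowtie2 and CASAVA in the submitters' processing notes, versions not given in the sources used here) and deposited, for 29257 RefSeq transcripts in each of 10 libraries, whole read counts and RPKM. The deposited RPKM matched those recomputed from the deposited counts and lengths within 1% for 100% of values over 200 reads. Depth ranged from 3895537 to 43377815 reads in genes. A read of a pseudogene (163 carry the name of 1 of 52 members) or of an antisense transcript cannot be told from a member's.

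Folds are differences of log2(RPKM + 0.1), which understates low genes, without a test, for genes that reached 3 RPKM in either library, counted past 1.5-fold; intervals are exact 95% binomial. Tests used edgeR 4.0.16 quasi-likelihood (TMM, ~ stage + arm, mean RPKM of at least 1, Benjamini-Hochberg over 12277 genes, 0.05), with limma 3.58.1 and DESeq2 1.42.0 as alternatives in R 4.3.3, checked on simulated counts. With 1 library per condition, the spread behind the p-values is what remains after stage and arm are fitted. It is how the arm difference varies between stages (4 residual degrees of freedom), and separate cultures are not stated. GC content came from GENCODE M1 on NCBIM37 (82 of 83 members; 9 differ in length by over 100 bases), and its trend with log length from a spline over all genes (5 knots). Named genes are the 5 highest and lowest by mean, 3 at each end per stage, 10 smallest p per contrast, copies with parents, role lists, and up to 4 genes of each other list by size of the shared fold. Members and lists were chosen with earlier results of these data known. The GC content of the coding sequence and the fit with separate early and late effects were chosen after seeing the data. Values of some genes that the rule would name are not reported here.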

Additional observations from a re-analysis of the deposited data

Results flagged for a closer look

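The direction of the shSmyd5 difference changed with the stage. Of 80 ribosomal protein genes with a fold in ES cells and at 24 h, day 10 and day 14, 22 (27.5%) were higher in shSmyd5 at both early stages and lower at both late stages, and 0 the reverse. Over all genes the first pattern held for 545 of 7261 (7.51%), and the reverse was not counted. Both patterns were counted on folds that keep the GC and length trend. The change of direction was not tested per stage, as each stage has 1 library per arm. In the fit with separate effects, the difference of the early and the late effect was called for 0 of 12277 genes by edgeR, and 11 ribosomal protein genes were higher and 1 lower at an unadjusted p under 0.05, led by Rps27 with a log2 difference of 1.37 ± 0.38 (SE), adjusted p = 0.883. That fit keeps the GC and length trend, and the Rps27 level is that of a transcript listed as non-coding. The ratio of Smyd5 between the arms was closest to 1 in the late libraries (24.95 against 9.14 RPKM at day 10, 13.1 against 6.88 RPKM at day 14), and its part in the pattern was not tested.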

How the results depend on the processing

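With 1 library per condition, single-stage folds have no replicate check, and the shLuc ES library, with 3895537 reads, limits low genes most. For the late contrast, where 65 members were called, limma on log2 RPKM called 42 and the fit with GC and length offsets 38. Leaving out 1 stage gave 36 (without day 10) to 68 (without day 6). Shares of all genes are not given for the limma and leave-one-out fits, so their counts cannot be set against a background. Rplp0 lost its call without the ES libraries (log2 fold -0.55). The cause was not tested. The shared effect of shSmyd5 was called for 0 members in each of the alternatives run, leave-one-out fits included. The main edgeR fit also called 0 of all 12277 genes, so 0 members there says nothing particular about the members. DESeq2 called 177 of all genes higher and 159 lower. All-gene counts of the other alternatives are not given. Across the fits of this shared effect, 2 to 26 members were higher at an unadjusted p under 0.05. Shares of all genes at that limit are given only for the main edgeR and the DESeq2 fits, so the range cannot be set against a background. The fit pairs the arms by stage, and without that stage block it also called 0 members. Replicate numbers pair no samples, as each condition has 1 library.

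TMM scaling moved the median fold of the members to 0.74 (ES cells), 0.47 (24 h), 0.58 (day 6) and 0.075 (day 10), with the all-gene median at 0.03, -0.01, -0.01 and 0.04. With the GC and length trend taken out it was 0.12, 0.40, -0.27, -0.15 and -0.023 over the 5 stages, so the sign turned at day 6, and 15 members were past 1.5-fold in ES cells. The all-gene median was then -0.03, 0.16, -0.40, -0.05 and 0.02. The members thus stayed above all genes up to day 6 and lay below them at day 10 and day 14. A 2-fold limit left 23 (ES cells), 27 (24 h), 16 (day 6) and 2 (day 10). Of these, 20, 27, 14 and 0 were higher in shSmyd5 and 3, 0, 2 and 2 lower. Shares of all genes past 2-fold are not given, so the 2-fold counts cannot be set against a background. Against ES cells, GC-freed counts were 18 (shLuc day 10), 36 (shSmyd5 day 10) and 40 (shSmyd5 day 14).

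Summing reads over all transcripts of each gene changed the share to 2.57%, 2.52%, 2.41%, 1.57% and 1.52% in shLuc and to 3.52%, 3.48%, 3.87%, 1.44% and 1.38% in shSmyd5. As a share of summed RPKM it was 9.56%, 9.54%, 10.1%, 6.76% and 6.75% in shLuc and 12.7%, 12.4%, 14.4%, 6.17% and 6.03% in shSmyd5, with the same order of arms at every stage. The remaining 220 comparisons of a result with an alternative stayed on the same side of the test's threshold or, where there is no test, within the limit set for a like value (for a count, 1.5 times the reported one). Within these counts the balance of higher and lower members turned with the GC and length trend taken out at day 6 between arms (9 higher, 22 lower) and in shLuc day 6 against ES cells (17 and 22), and under TMM against ES cells in shLuc 24 h (35 and 22), shSmyd5 24 h (22 and 17) and shSmyd5 day 6 (28 and 22). The TMM counts have no shares of all genes beside them.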

Other observations

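Nuclear genes of the mitochondrial ribosome, 76 in all, gave a like fall in late EBs: 64 fell and 0 rose by edgeR (26% lower and 30% higher over all genes). Between arms, in ES cells, they had 23 at least 1.5-fold higher and 6 lower (17.4% and 25.4% of all genes) and a median log2 fold of 0.24 (0.05 with the GC and length trend taken out), and at 24 h they had 29 higher and 3 lower (27.8% and 12.2%) and a median of 0.39 (0.15). At day 6 they had 11 higher and 17 lower (15.2% and 38.1%), with a median of -0.12. Among the translation initiation factors Eif2s2, the beta subunit of the factor that brings the initiator tRNA, stood at 136, 299.6, 156, 78.4 and 96.8 RPKM in shLuc and 246, 469.5, 354, 105 and 89.0 RPKM in shSmyd5, higher in shSmyd5 at 4 of 5 stages. Trp53, which is stabilised when ribosome assembly fails, fell late with a log2 fold of -2.57 ± 0.28 (SE), adjusted p = 3.17e-05 by edgeR and stood at 276, 111, 86.3, 63.8 and 42.1 RPKM in shLuc and 219.9, 250.4, 53.1, 47.8 and 33.4 RPKM in shSmyd5, while its regulator Mdm2 stood at 26.9, 38.2, 40.3, 28.1 and 50.6 RPKM in shLuc and 45.3, 39.2, 47.8, 56.3 and 76.4 RPKM in shSmyd5 and was higher in shSmyd5 at every stage, with a shared log2 fold of 0.59 ± 0.21 (SE), adjusted p = 0.318 by edgeR.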
